A study of Mus musculus with 24 samples.

Results

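Sites of KMT2D and of Menin were compared in 1 mouse melanoma cell line, the Kmt2d WT line 971, by CUT&RUN, in which an antibody brings a nuclease to a protein on chromatin and the DNA it releases is sequenced. The comparison used every peak of both lists, 6434 KMT2D peaks and 13481 Menin peaks, 19915 of the 197727 peaks in the 22 lists of the series. Peaks of one protein that shared 1 bp or more with a peak of the other are called joint, and the rest belong to KMT2D only or to Menin only. The other lists came from the same line (H3K4me3, UTX, ARID1A, ARID2, PBRM1, BRD9, SMARCC1 and TFAP2A) and from the Kmt2d mutant line 493, both cultured in DMEM/F12 medium plus fetal bovine serum. There were 10 lists from the WT line and 12 from the mutant line, and 2 rabbit IgG samples were not analysed here. KMT2D was profiled in the WT line only, and each target used here had 1 library in each line that has it, so no test and no replicate check was possible, 1 line stands for each genotype, and line and genotype cannot be told apart. The KMT2D antibody was Millipore ABE1867 and the Menin antibody came from Epicypher, and a difference between antibodies and a difference between proteins cannot be told apart here. Peak lists hold no read counts, so the depth behind a peak is unknown and a missing peak is not a missing protein.

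KMT2D and Menin belong to different COMPASS complexes, which methylate lysine 4 of histone H3. KMT2D (also MLL4) works with KMT2C at enhancers, where it places the monomethyl mark, and its complex holds UTX (gene Kdm6a), which removes methyl groups from lysine 27 of H3. Menin (gene Men1) sits in the complexes of KMT2A and KMT2B, which place trimethyl marks (H3K4me3) at the starts of genes and are known from leukaemia for their hold on Hox and Meis1 genes. ARID1A marks the canonical SWI/SNF remodelling complex, and TFAP2A is a transcription factor of neural crest and melanocytes.

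The promoters printed here belong to the genes with the highest fold enrichment in each class whose highest peak has its summit within the window. They show what the starts of joint genes, of KMT2D-only genes and of Menin-only genes look like in sequence. Each is RefSeq sequence of GRCm38.p6 (the assembly of mm10), 5′ to 3′ on the gene's strand, running 250 bases before the start and 50 from it. Capitals mark CCAAT, or ATTGG where the box lies on the other strand. The CCAAT box is the sequence bound by the factor NF-Y.
The joint promoters are Sp1 (chr15:102406066-102406365, plus strand), which encodes a general transcription factor, Gamt (chr10:80260963-80261262, minus strand), which encodes an enzyme of creatine synthesis, and Arrdc2 (chr8:70839671-70839970, minus strand), an arrestin-domain gene.
Sp1: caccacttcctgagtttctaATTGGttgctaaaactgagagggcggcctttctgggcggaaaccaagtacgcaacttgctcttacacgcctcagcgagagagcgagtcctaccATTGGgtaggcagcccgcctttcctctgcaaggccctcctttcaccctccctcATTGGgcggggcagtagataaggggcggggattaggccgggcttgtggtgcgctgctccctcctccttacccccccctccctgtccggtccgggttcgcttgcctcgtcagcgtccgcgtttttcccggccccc
Gamt: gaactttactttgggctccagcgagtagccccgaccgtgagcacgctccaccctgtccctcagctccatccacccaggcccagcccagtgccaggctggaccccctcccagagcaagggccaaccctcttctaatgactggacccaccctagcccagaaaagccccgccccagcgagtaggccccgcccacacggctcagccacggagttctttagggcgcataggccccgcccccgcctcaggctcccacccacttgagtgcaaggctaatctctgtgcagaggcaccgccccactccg
Arrdc2: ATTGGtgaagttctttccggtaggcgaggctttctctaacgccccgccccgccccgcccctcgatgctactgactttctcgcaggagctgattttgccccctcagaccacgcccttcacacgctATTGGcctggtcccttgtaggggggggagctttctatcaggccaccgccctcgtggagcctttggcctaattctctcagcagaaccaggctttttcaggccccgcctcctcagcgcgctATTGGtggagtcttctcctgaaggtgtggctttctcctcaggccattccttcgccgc
The KMT2D-only promoters are Nr1d1 (chr11:98775328-98775627, minus strand), which encodes the clock repressor REV-ERBα, and Ccdc9 (chr7:16285968-16286267, minus strand).
Nr1d1: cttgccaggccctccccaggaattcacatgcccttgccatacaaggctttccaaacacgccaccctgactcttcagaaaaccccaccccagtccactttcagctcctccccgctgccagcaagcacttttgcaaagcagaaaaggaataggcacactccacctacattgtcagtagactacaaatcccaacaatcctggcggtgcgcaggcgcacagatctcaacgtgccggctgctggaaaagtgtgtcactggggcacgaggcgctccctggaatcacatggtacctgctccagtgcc
Ccdc9: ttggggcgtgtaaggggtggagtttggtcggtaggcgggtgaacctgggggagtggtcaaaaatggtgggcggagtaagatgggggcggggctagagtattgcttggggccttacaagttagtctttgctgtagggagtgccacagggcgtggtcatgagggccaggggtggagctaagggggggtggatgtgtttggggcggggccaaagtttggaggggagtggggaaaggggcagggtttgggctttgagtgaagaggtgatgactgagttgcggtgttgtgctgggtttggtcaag
The Menin-only promoters are Rbck1 (chr2:152332376-152332675, minus strand), which encodes a subunit of the linear ubiquitin ligase, and Pde6d (chr1:86582736-86583035, minus strand), which encodes a carrier of prenylated proteins.
Rbck1: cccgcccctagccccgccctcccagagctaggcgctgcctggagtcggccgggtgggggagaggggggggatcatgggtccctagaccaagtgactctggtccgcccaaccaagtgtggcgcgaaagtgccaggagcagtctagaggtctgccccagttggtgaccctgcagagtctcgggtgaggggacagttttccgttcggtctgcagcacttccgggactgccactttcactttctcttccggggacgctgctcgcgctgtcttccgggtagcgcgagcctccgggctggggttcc
Pde6d: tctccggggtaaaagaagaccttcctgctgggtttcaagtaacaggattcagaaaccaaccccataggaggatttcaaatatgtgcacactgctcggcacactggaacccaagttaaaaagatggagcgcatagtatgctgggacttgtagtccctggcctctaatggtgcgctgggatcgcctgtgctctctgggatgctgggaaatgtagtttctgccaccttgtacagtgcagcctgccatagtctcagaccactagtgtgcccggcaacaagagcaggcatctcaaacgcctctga
Sp1 and Arrdc2 each hold 3 boxes, and the other 5 windows hold none. Counted from the start, the KMT2D summit lay at −248 bp at Sp1, −191 bp at Gamt, −30 bp at Arrdc2, −161 bp at Nr1d1 and −205 bp at Ccdc9. The Menin summit lay at −77 bp at Rbck1 and on the first base at Pde6d.

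KMT2D and Menin shared a minority of their sites. Of the KMT2D peaks, 2423 (37.7%, 95% Wilson interval 36.5–38.9%) overlapped a Menin peak and 4011 did not. Of the Menin peaks, 2429 (18.02%, 17.4–18.7%) overlapped a KMT2D peak and 11052 did not. Merged together, the lists gave 17459 regions, of which 2396 held both. KMT2D peaks covered 2.61 Mb and Menin peaks 11.2 Mb, with 0.847 Mb in both. The intervals cover counting error alone, not the spread between cultures. The number shared rests on the length of the Menin list. With the Menin list shortened to its 6434 highest peaks by fold enrichment, so that both lists were equally long, 22.5% of KMT2D peaks were joint.

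In overlapping pairs the summits lay close together, which the overlap rule itself favours, and no expected gap was computed. Across 2456 overlapping pairs, the summits were 103 bp apart at the median (quartiles 42 and 256 bp), and 68.7% were within 200 bp. KMT2D peaks were the narrower: the median pair had 99.1% of the KMT2D peak inside the Menin peak and 48.0% of the Menin peak inside the KMT2D peak. Joint KMT2D peaks were 371 bp wide at the median and KMT2D-only peaks 307 bp, against 655 bp for joint Menin peaks and 574 bp for Menin-only peaks. The fold enrichments of paired peaks showed almost no rank relation (Spearman 0.0477 across 2456 pairs, as a description of 1 library each).

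Location split the classes. KMT2D-only peaks lay mostly away from gene ends, inside genes or between them, while joint peaks and Menin-only peaks lay mostly at gene ends. A gene end is the 1 kb on either side of either end of a protein-coding gene, so it includes 3′ ends and the starts of neighbours. Among joint KMT2D peaks 55.2% were at a gene end (53.2–57.2%), among KMT2D-only peaks 13.6% (12.6–14.7%) and among Menin-only peaks 53.7% (52.8–54.6%). Peaks more than 5 kb from any gene end, called distal here, made up 32.0% of joint KMT2D peaks, 72.9% of KMT2D-only peaks and 25.05% of Menin-only peaks. The median distance to a gene end was 327 bp, 17375 bp and 850 bp in the same order of classes. Over 50 kb from any gene end lay 7.80% of joint, 25.5% of KMT2D-only and 7.01% of Menin-only peaks. Distal KMT2D-only peaks divided into 34.8% of the class inside a gene and 38.1% between genes, against 17.9% and 7.16% for Menin only.

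**Figure D1:**
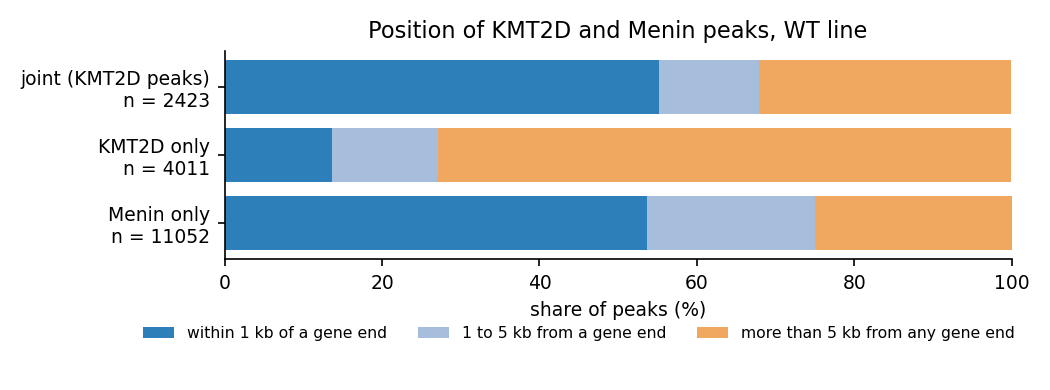
Share of peaks (x axis, %) within 1 kb of a gene end, 1 to 5 kb from one, and more than 5 kb from any, for 2423 joint KMT2D peaks, 4011 KMT2D-only peaks and 11052 Menin-only peaks of the WT line. The distal share is 72.9% for KMT2D only, against 32.0% for joint and 25.05% for Menin only.

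KMT2D-only sites were seldom next to a Menin site. A Menin peak lay within 1 kb of 7.53% of KMT2D-only peaks and within 20 kb of 33.4%, and the median distance was 41.6 kb. A KMT2D peak lay within 1 kb of 7.92% of Menin-only peaks and within 20 kb of 30.2%, with a median of 60.3 kb.

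At annotated gene starts the summits of the classes took different positions. The starts come from the promoter table, which matched 17468 of the 21883 protein-coding genes. Joint KMT2D summits within 1 kb of a start had a median of −115 bp (quartiles −195 and −1 bp, 1221 summits), upstream of the start. KMT2D-only summits had a median of −127 bp (416 summits) and joint Menin summits of −115 bp (1179 summits). Menin-only summits had a median of 22 bp downstream (quartiles −155 and 564 bp, 4490 summits). Downstream of the start were 24.6% of joint KMT2D (22.2–27.1%), 28.6% of joint Menin (26.1–31.2%) and 53.0% of Menin-only summits (51.5–54.4%), and the interval for KMT2D-only summits was 21.1–29.4%.

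Menin-only summits formed 2 groups, 1 at the start and 1 inside the gene. Their highest 50 bp bin was the one that ends at the start (5.77% of summits within 2 kb), the level fell to a mean of 1.03% per bin between 300 and 500 bp downstream, and it was 2.30% per bin between 700 and 1000 bp, with its second top at 800 to 850 bp. No such second top was seen for KMT2D, whose joint peaks held 0.153% and KMT2D-only peaks 0.368% per bin between 700 and 1000 bp. Summits 500 to 1500 bp downstream, a range chosen after this shape was seen, made up 4.12% of joint KMT2D, 6.83% of KMT2D-only, 9.33% of joint Menin and 35.0% of Menin-only summits within 2 kb of a start. The share of H3K4me3 summits there was 36.5%. Of the 2135 downstream Menin-only peaks, 97.8% overlapped H3K4me3 and 1.87% overlapped UTX. At 14.9% of them a KMT2D summit, and at 32.1% another Menin summit, lay within 300 bp of the same gene's start.

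**Figure D2:**
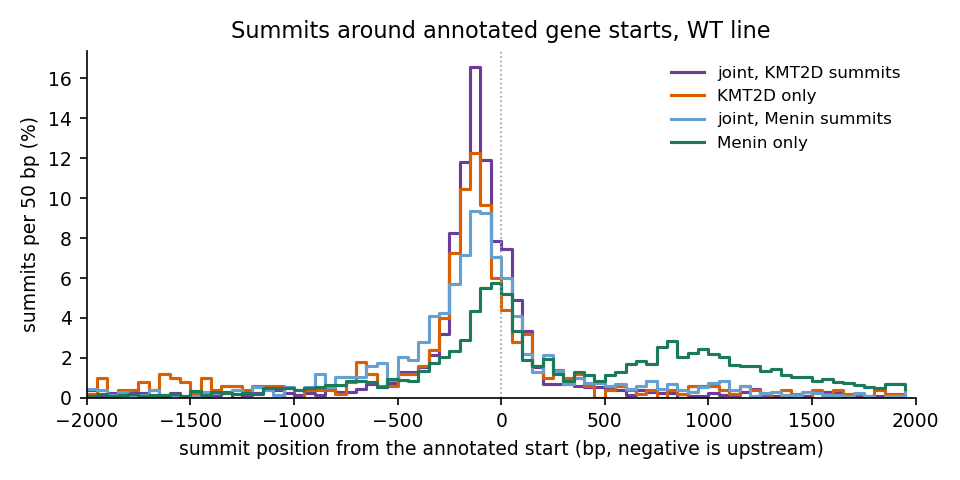
Position of peak summits (x axis, bp from the nearest annotated start, upstream negative) as the share of summits within 2 kb in each 50 bp bin (y axis, %), for joint KMT2D, KMT2D-only, joint Menin and Menin-only peaks of the WT line. KMT2D and joint Menin summits gather upstream with a top bin at −150 to −100 bp, and Menin-only summits have a second top at 800 to 850 bp downstream.

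UTX went with KMT2D, and H3K4me3 with Menin. UTX overlapped 86.9% of joint KMT2D peaks (85.5–88.2%), 89.2% of KMT2D-only peaks (88.2–90.2%) and 7.17% of Menin-only peaks (6.70–7.66%). H3K4me3 overlapped 70.5% of joint peaks (68.7–72.3%), 13.1% of KMT2D-only peaks (12.1–14.2%) and 80.5% of Menin-only peaks (79.8–81.3%). Joint sites therefore carried both, with UTX and H3K4me3 together on 59.7% of joint, 10.8% of KMT2D-only and 4.38% of Menin-only peaks. UTX without H3K4me3 lay on 27.2% of joint, 78.4% of KMT2D-only and 2.79% of Menin-only peaks. H3K4me3 without UTX lay on 10.9% of joint, 2.29% of KMT2D-only and 76.1% of Menin-only peaks.

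The division held within each kind of location. At gene ends UTX was on 83.9% of joint, 83.1% of KMT2D-only and 5.53% of Menin-only peaks, and at distal sites on 92.1%, 90.5% and 12.9% in the same order. H3K4me3 at gene ends was on 91.1% of joint, 55.2% of KMT2D-only and 95.6% of Menin-only peaks. At distal sites it was on 37.6% of joint, 4.86% of KMT2D-only and 50.7% of Menin-only peaks. Of the SWI/SNF subunits, ARID1A and SMARCC1 were likewise more common with KMT2D. ARID1A was on 94.6% of distal joint, 93.3% of distal KMT2D-only and 32.9% of distal Menin-only peaks, and SMARCC1, its core subunit, on 61.2%, 67.6% and 15.4% in the same order. ARID2, a subunit of the PBAF form with a list of 689 peaks, was too. It was on 5.28% of distal joint, 4.48% of distal KMT2D-only and 1.01% of distal Menin-only peaks, and at gene ends on 5.01%, 5.87% and 0.758%. BRD9, with 141 peaks, was on 1.28% of all joint, 1.35% of KMT2D-only and 0.0633% of Menin-only peaks. PBRM1, another PBAF subunit with a list of 343 peaks, did not share this pattern. It was on 0.773% of distal joint, 0.137% of distal KMT2D-only and 0.325% of distal Menin-only peaks, and at gene ends on 4.78%, 2.02% and 2.75%. TFAP2A was highest at joint gene-end sites, at 79.5%, against 64.4% for KMT2D only and 35.0% for Menin only. None of the other 8 WT targets was called at 0.454% of joint, 2.04% of KMT2D-only and 11.1% of Menin-only peaks, and among distal Menin-only peaks that share was 24.9%. An overlap share depends on how wide the peaks are and how long the other list is, and no 2 antibodies can be set on 1 scale here.

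**Figure D3:**
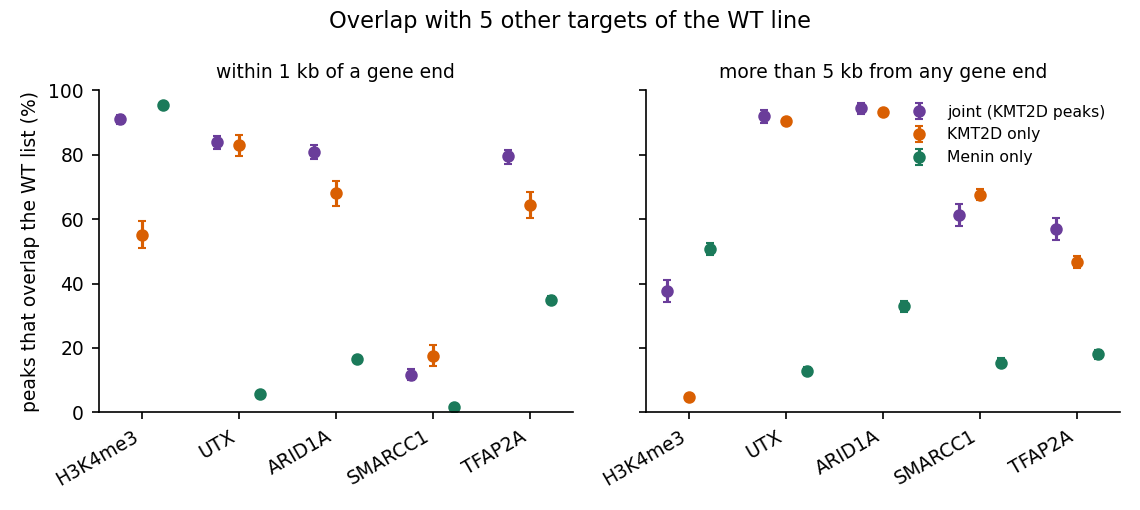
Share of peaks (y axis, %) that overlap a peak of 5 other WT targets, at gene ends (left) and at distal sites (right), for joint KMT2D, KMT2D-only and Menin-only peaks. Bars are 95% Wilson intervals for counting error. UTX stands above 83% for both KMT2D classes and at 5.53% and 12.9% for Menin only.

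Strong KMT2D sites were joint more often than weak ones. Split into 5 equal bins by the authors' fold enrichment, 52.3% of KMT2D peaks in the strongest bin and 29.3% in the weakest were joint. The order was the same at gene ends (76.4% and 63.5%) and at distal sites (28.3% and 16.2%). Among Menin peaks the joint share was 26.7% in the strongest bin and 12.8% in the weakest. At gene ends these were 29.6% and 11.2%, and at distal sites 24.2% and 19.04%. In the weakest bin of KMT2D, UTX was on 63.1% of joint and 74.2% of KMT2D-only peaks, against 99.9% and 99.3% in the strongest bin.

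Genes divided more unevenly than peaks. A gene-end KMT2D peak was found at 2219 genes, 10.1% of 21883, and a gene-end Menin peak at 6908, 31.6%. Both were present at 1815 genes (8.29% of all genes), KMT2D and no Menin at 404 (1.85%), Menin and no KMT2D at 5093 (23.3%) and neither at 14571 (66.6%). Most genes with KMT2D therefore also carried Menin, and at 89.0% of the 1815 genes with both, a KMT2D peak lay on a Menin peak. Without any peak of the other protein within 5 kb of the gene, 280 KMT2D-only and 4321 Menin-only genes were left. With equally long lists the counts became 1311 genes with both, 908 with KMT2D and no Menin, and 2976 with Menin and no KMT2D.

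Genes of all 3 classes carried the promoter mark. H3K4me3, found at 49.3% of all genes, was at a gene end of 98.9% of genes with both, 82.4% of KMT2D-only genes and 98.7% of Menin-only genes. Its median fold enrichment at those that carried it was 17.3 with both, 13.2 with KMT2D only and 16.7 with Menin only. UTX was at 84.5%, 85.1% and 7.99% of genes in the same order, and ARID1A at 80.4%, 70.8% and 23.1%. KMT2D fold enrichment had the same median, 11.4, at genes with Menin and at genes without. Its quartiles were 7.20 and 21.2 with Menin and 6.50 and 17.8 without. Menin fold enrichment had a median of 9.22 at genes with KMT2D and 7.66 at genes without.

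The joint genes with the highest KMT2D enrichment were led by Sp1. The gene runs from 102406316 to 102436404 on chromosome 15, and its end carried KMT2D at 210-fold and Menin at 9.75-fold, with UTX at 300.3-fold. The shared end of Ubxn6 and Hdgfl2, a cofactor of the p97 ATPase and a chromatin reader, had KMT2D at 159-fold and Menin at 5.18-fold. The ends of Pip5k1c and Cactin, a lipid kinase and a splicing factor, had KMT2D at 140-fold and Menin at 14.97-fold. Tbc1d10b and Mylpf shared a KMT2D peak of 139-fold, and Gamt had KMT2D at 126-fold and Menin at 8.10-fold. None of these 8 genes was among the 8 joint genes highest by Menin. Unrelated sets of 8 from the 1815 genes with both would seldom share a gene, so this does not set the 2 rankings apart.

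The joint genes with the highest Menin enrichment had KMT2D values between 5.10-fold and 14.2-fold, against quartiles of 7.20-fold and 21.2-fold over all genes with both. Ncln, which encodes nicalin of the endoplasmic reticulum, had KMT2D at 8.60-fold and Menin at 35.8-fold. Bcl2l12 and Irf3, of which Irf3 encodes an interferon regulatory factor, shared KMT2D at 5.10-fold and Menin at 31.2-fold. Snx1, a sorting nexin gene, had 14.2-fold and 30.1-fold for KMT2D and Menin, and Mmachc with Ccdc163 had 11.4-fold and 29.6-fold. Dnajc17 and Zfyve19 had 7.90-fold and 29.1-fold. All 8 of these genes also had a mutant Menin peak, near the 95.9% of all genes with both.

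KMT2D-only genes with no Menin peak within 5 kb were led by Rps19, a gene of the small ribosomal subunit, with KMT2D at 68.9-fold. Zfpm1, which encodes the GATA cofactor FOG1, had 67.1-fold, Evi5l 66.05-fold, and Khsrp, which encodes an RNA-binding protein of mRNA decay, 61.9-fold at an end shared with Slc25a41. LOC108167694 and Gm20783 followed with 61.8-fold at a site called in 7 of the other 8 WT lists, and Nr1d1 with 54.8-fold. UTX was called at all 8, between 54.3-fold at Nr1d1 and 118-fold at Khsrp, and H3K4me3 at 7 of the 8, the exception being Slc25a41. Over all KMT2D-only genes, UTX was at 85.1% and H3K4me3 at 82.4%.

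Menin-only genes with no KMT2D peak within 5 kb were led by Ccr10 and Cntnap1, which overlap on chromosome 11, with Menin at 35.3-fold. Sos2, which encodes an exchange factor for RAS, had 34.8-fold, Timmdc1, a complex I assembly gene, 33.8-fold and Rbck1 30.6-fold. Kbtbd2, Gm10209 and Fign each had 27.5-fold. H3K4me3 was called at all 8 of these genes, UTX at 2 of them, and mutant Menin at all 8. Over all Menin-only genes the shares were 98.7%, 7.99% and 93.2% in that order.

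The highest distal sites differed in their partners. Each is named by the gene with the nearest end. That end was 262744 bp away for Mc2r, 72414 bp for Ppara, 65111 bp for Chd2 and 57008 bp for Cradd. The 8 highest joint sites lay near or inside Ptprs (chr17:56462057-56463050), a receptor phosphatase gene, with KMT2D at 118-fold and Menin at 8.10-fold, and near Tex44, Zdhhc18, Wdr81, Gramd1b, Plec, Lrrc74a and Kctd7. Menin there ran between 4.06-fold near Wdr81 and 16.8-fold inside Kctd7. All 8 had UTX and ARID1A and 6 had H3K4me3, against 92.1%, 94.6% and 37.6% of all distal joint KMT2D peaks. High KMT2D-only sites lay near Arntl (chr7:113147398-113149017), which encodes the clock activator BMAL1, at 111-fold, near Hbegf, the gene of a ligand of the EGF receptor, at 109-fold, and near Mc2r, Myl12b, Eapp, Cd209a and Tex14. All 7 of these sites had UTX, 5 had ARID1A and none had H3K4me3, against 90.5%, 93.3% and 4.86% of all distal KMT2D-only peaks. The 8 highest Menin-only sites lay near Larp1 (chr11:57962205-57963233), an mRNA-binding protein gene, at 37.4-fold, and near Csf2ra, Nkain2, Zbtb20, Chd2, Mef2c, Ppara and Cradd. All 8 had H3K4me3 and 1 had UTX, against 50.7% and 12.9% of all distal Menin-only peaks. The site inside Mef2c (chr13:83523125-83532677), which encodes a MADS-box transcription factor, had Menin at 29.1-fold over 9553 bp. Such wide Menin peaks were named after their widths were seen. The widest lay over Dlx1 and Dlx2, homeobox genes, with 13085 bp, and at Fign with 11856 bp, neither with a KMT2D peak. Other wide Menin peaks, at Cdkn1b, Vgll3 and Lnpep, each overlapped 1 KMT2D peak. Split into 5 equal bins by width, 22.6% of Menin peaks in the widest bin and 14.8% in the narrowest were joint.

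Among genes of the COMPASS family itself, Menin was found at genes of both branches. The lists are short, at 4 to 6 genes, and are set beside shares of all genes of 10.1% for KMT2D and 31.6% for Menin, so a count of no KMT2D in so short a list is near that share. Of 6 genes of the KMT2C and KMT2D complexes, 5 had Menin at a gene end and none had KMT2D. Within 20 kb, however, Kmt2d had 1 joint KMT2D peak and Pagr1a had 2 KMT2D-only peaks. Kmt2d had Menin at 6.09-fold, Kmt2c at 11.8-fold and Kdm6a, the gene of UTX, at 4.99-fold, and Paxip1 and Pagr1a completed the 5. All 4 genes of the KMT2A and KMT2B complexes had Menin and 3 had KMT2D. Kmt2a had KMT2D at 17.7-fold and Menin at 10.3-fold, Kmt2b 21.9-fold and 5.05-fold, and Men1, the gene of Menin, 22.6-fold and 16.5-fold. Psip1, which encodes the LEDGF tether, had Menin alone, at 12.4-fold. Of the SETD1A and SETD1B complex genes, 2 of 5 had both and 1 had Menin alone. Of 5 genes listed as shared subunits of COMPASS complexes, Wdr5 and Rbbp5 had Menin alone, and the other 3 had neither.

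Housekeeping lists carried Menin far more often than KMT2D. Of 77 cytosolic ribosomal protein genes 8 had both, 1 had KMT2D only and 41 had Menin only. KMT2D therefore marked 11.7% of them, near its 10.1% of all genes, and Menin 63.6%, against 31.6% of all genes. Mitochondrial ribosomal protein genes had 9, 0 and 37 of 76 in the same order, oxidative phosphorylation genes 5, 1 and 30 of 63, and proteasome genes 1, 1 and 17 of 31. Ndufv2, a complex I gene, had KMT2D at 7.90-fold and Menin at 23.3-fold, and Psmb5, a catalytic proteasome gene, had Menin at 22.3-fold and no KMT2D. Glycolysis genes had 2, 1 and 12 of 24, with Pkm, the pyruvate kinase gene, at 22.4-fold for KMT2D and 9.42-fold for Menin. SWI/SNF genes had 6, 0 and 15 of 26, and Polycomb genes 4, 1 and 14 of 26. These counts are read against the shares of all genes and carry no test. H3K4me3, at 49.3% of all genes, was at 76 of 77 cytosolic ribosomal, 71 of 76 mitochondrial ribosomal and 61 of 63 oxidative phosphorylation genes. Of the 10784 genes with H3K4me3, 1795 had both proteins, 333 KMT2D only, 5025 Menin only and 3631 neither. Against those genes, Menin was not more common at cytosolic ribosomal protein genes, and KMT2D was less common.

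Lists of signalling and immediate response genes held KMT2D more often than the 10.1% of all genes, and Menin more often than the 31.6%. AP-1 genes, which encode the FOS and JUN factors, had both at 5 of 13, KMT2D only at 1 and Menin only at 3. Junb had KMT2D at 24.1-fold and Menin at 6.09-fold, Fosl2 21.4-fold and 5.93-fold, and Jund, the KMT2D-only member, 18.1-fold. MAPK feedback genes had 5, 2 and 10 of 19, with Egr1 at 26.8-fold for KMT2D and 9.75-fold for Menin and Dusp6, a phosphatase of ERK, with Menin alone at 11.8-fold. TEAD and YAP genes had 6, 1 and 8 of 18, and Wwtr1, the gene of TAZ, had KMT2D at 10.7-fold and Menin at 27.5-fold. TGF-beta genes had 5, 1 and 10 of 20, with Skil at 19.1-fold and 9.75-fold, in peaks that did not overlap. Mesenchymal and dedifferentiated state genes had 5, 3 and 9 of 24, with the receptor kinase gene Axl at 18.9-fold and 6.19-fold, Vim, the vimentin gene, with KMT2D alone at 22.4-fold and Zeb2, a repressor gene, with Menin alone at 21.2-fold. H3K4me3, at 49.3% of all genes, was at 12 of 13 AP-1 and 19 of 19 MAPK feedback genes. It was at 16 of 18 TEAD and YAP, 19 of 20 TGF-beta and 21 of 24 mesenchymal state genes. Among genes with H3K4me3, as counted above, both proteins were more common than among all genes. The shares of all genes are therefore a low baseline for these lists, and shares among their genes with H3K4me3 were not computed.

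KMT2D and Menin marked equally many clock genes. Of 19 genes, 4 had both, 4 had KMT2D only and 4 had Menin only, so each protein marked 8, or 42.1%. Over all genes KMT2D marked 10.1% and Menin 31.6%, with both at 8.29%, KMT2D only at 1.85% and Menin only at 23.3%. The 4 with KMT2D only were Nr1d1 at 54.8-fold, Nr1d2 at 38.7-fold, Dbp at 35.9-fold and Per2 at 29.6-fold, which encode a pair of REV-ERB repressors, a PAR-bZIP activator and a period repressor. Per1 had KMT2D at 55.8-fold and Menin at 5.18-fold, in peaks that did not overlap. Clock, Cry1, Per3 and Bhlhe41 had Menin alone, between 6.09-fold and 12.4-fold. H3K4me3 was present at all 4 KMT2D-only clock genes, between 6.83-fold at Nr1d2 and 19.2-fold at Nr1d1. Per2 and Dbp had a Menin peak within 5 kb of the gene, and Nr1d1 and Nr1d2 had none.

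KMT2D-only peaks within 20 kb of a gene were most common around AP-1 and clock genes. They were found at 16.0% of all genes, at 10 of 13 AP-1 genes (76.9%), 12 of 19 clock genes (63.2%), 11 of 24 mesenchymal state genes (45.8%) and 9 of 20 TGF-beta genes. They were found at 9 of 77 cytosolic ribosomal protein genes (11.7%) and at none of 39 Hox genes. Runs of distal KMT2D-only peaks, with gaps of at most 12.5 kb, reached 7 peaks near Zswim4 and 6 each near Snx6, Socs3 and Plec. The run near Socs3, which encodes a cytokine signalling inhibitor, had UTX on 5 of its 6 peaks, H3K4me3 on none and no Menin peak inside. The run near Zswim4 had H3K4me3 on 5 of its 7 peaks.

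Known Menin targets of other cell types were marked in part. Hox genes, whose activity in leukaemia with KMT2A rearrangements depends on Menin, had a gene-end peak of neither protein at any of 39 genes, against neither at 66.6% of all genes. None of the 39 had a gene-end peak of H3K4me3 or UTX. In the list of 10 other known targets, 1 gene had both proteins, 5 had Menin only and 4 had neither, and 7 had H3K4me3. Menin was thus at 60% of the list, against 31.6% of all genes, and KMT2D at 10%, against 10.1%. Meis1 had Menin at 12.7-fold, Cdkn2c at 20.7-fold and Cdkn1b at 12.6-fold, all without KMT2D at a gene end, and Pbx3 had both. The Menin peak at Cdkn1b, 9455 bp wide, did overlap 1 KMT2D peak beyond the gene end, and 1 joint KMT2D peak lay within 20 kb of Cdkn2c. Cdkn1b and Cdkn2c encode cyclin-dependent kinase inhibitors.

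The label of the line was set against pigment cell genes, which carried H3K4me3 less often than all genes did. Of 21 pigment cell genes, 7 had a gene-end H3K4me3 peak, against 49.3% of all genes, 4 of 10 fibroblast, 2 of 8 keratinocyte, 0 of 8 blood cell and 1 of 6 endothelial genes. Among the 7 were Mitf, the gene of the melanocyte regulator, Pmel and Erbb3. Sox10, Tyr, Dct and Mlana had none. Pmel and Erbb3 had both proteins, Erbb3 with KMT2D at 79.4-fold and Menin at 21.7-fold, Pax3 had Menin alone at 19.7-fold, and the other 18 of 21 had neither. Markers of other cell types were mostly free of both: of 10 fibroblast genes Col1a1 had KMT2D and Col3a1 Menin, of 8 keratinocyte genes Krt10 had Menin, and 8 blood cell and 6 endothelial genes had neither. Of 12 silent tissue-restricted genes, Apoa2 had both, at 26.1-fold for KMT2D and 16.5-fold for Menin.

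**Figure D4:**
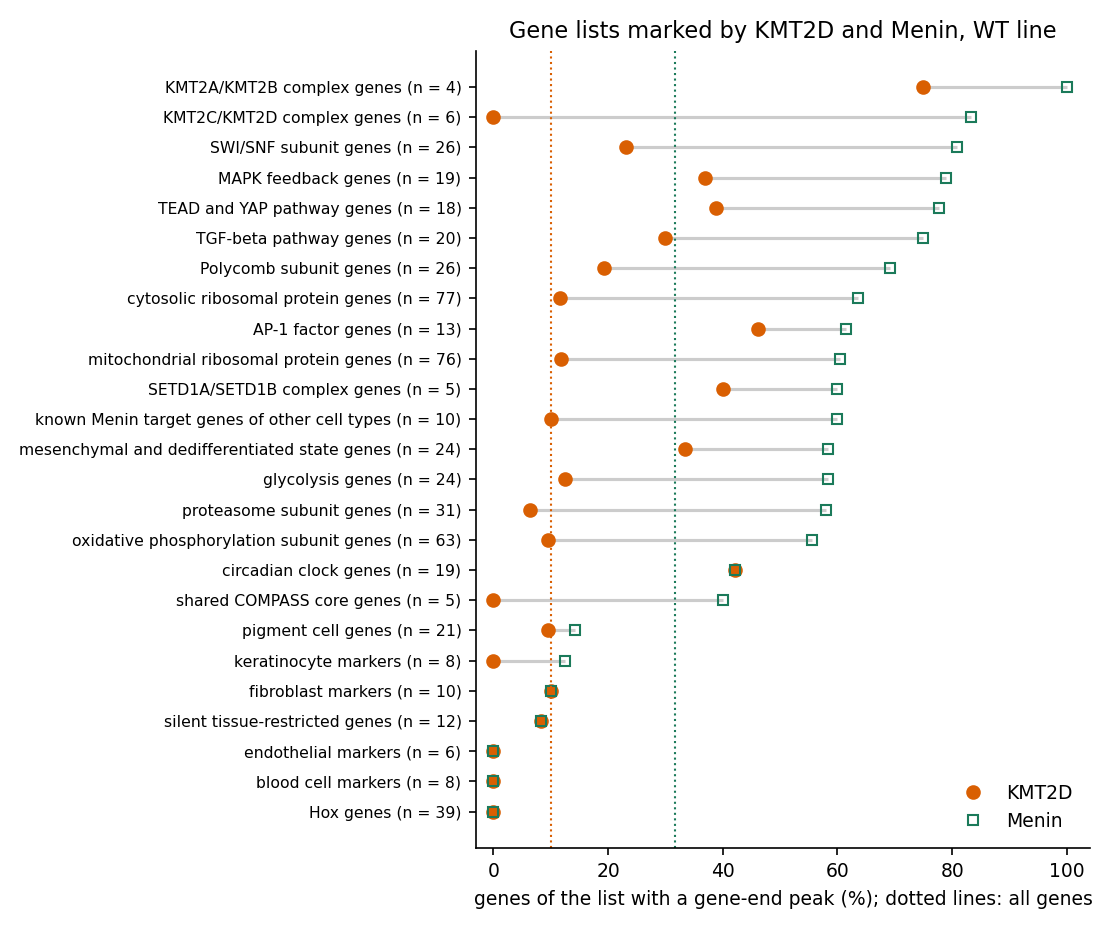
Share of the genes of 25 lists (x axis, %) with a gene-end peak of KMT2D (filled circles) and of Menin (open squares) in the WT line, with the number of genes in each list. Dotted lines give the shares of all genes, 10.1% for KMT2D and 31.6% for Menin. Clock genes are at the same share for both, as are the fibroblast, silent tissue-restricted, Hox, blood cell and endothelial lists at lower shares.

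Between promoters with both proteins, with KMT2D only and with Menin only, the motif that differed most, in percentage points, was the CCAAT box. As a ratio between classes, several rarer motifs differed more. A promoter window ran 250 bases before to 50 after a start. Of 21237 windows, 1340 had a peak of both, 522 of KMT2D only, 3962 of Menin only and 15413 of neither. CCAAT on either strand was present in 59.3% of windows with both (56.6–61.9%), 49.0% with KMT2D only (44.8–53.3%), 38.8% with Menin only (37.3–40.3%), and 38.2% of all windows. In windows with H3K4me3 and neither protein it was present in 31.8%. At least 2 boxes were in 35.3% of windows with both, 26.6% with KMT2D only and 14.1% with Menin only. Sp1 and Arrdc2, printed above with 3 boxes each, are of the first kind, and Gamt shows a joint promoter with none.

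The shares were higher in windows that held the summit. Where the KMT2D summit fell inside the window, CCAAT was in 63.8% of windows with both and 55.7% with KMT2D only. Where the Menin summit fell inside the window, CCAAT was in 67.0% of windows with both and 45.9% with Menin only. From the strongest to the weakest of 5 bins of KMT2D summits, the share was 69.4%, 64.7%, 59.6%, 64.3% and 51.4%, highest and lowest in the end bins and without a steady order between them. Among Menin-only windows it was 51.7% in the strongest bin of Menin summits and 36.1% in the weakest.

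The other motifs separated these 3 classes by fewer percentage points, and some in another order. Against windows with neither protein the GC box differed more than CCAAT, at 36.9% and 35.8% of those windows. The GC box GGGCGG, bound by SP factors, was in 80.2% of windows with both, 76.6% with KMT2D only, 66.8% with Menin only and 46.2% of all windows, and in 67.1% of those with H3K4me3 and neither protein. The ETS motif CCGGAAG was in 17.5%, 15.5% and 23.7% of the 3 classes in that order and in 11.6% of all windows. The E-box CACGTG, bound by clock activators and MYC, was in 7.24%, 12.3% and 8.76%, against 7.84% of all windows and 11.97% of those with H3K4me3 and neither protein. AP-1 sites TGANTCA were in 3.51%, 7.28% and 3.61% of the classes and 6.99% of all windows. The TFAP2 motif GCCNNNGGC was in 28.9%, 28.5% and 24.8%, against 19.9% of all windows. TATAAA was in 5.15%, 8.62% and 5.60%, against 12.6% of all. The CRE motif TGACGTCA, the TEAD motif GGAATG and the D-box TTATGTAA were also searched. CRE was in 1.72% of windows with both (1.15–2.56%), 4.41% with KMT2D only (2.95–6.52%) and 3.03% with Menin only (2.54–3.61%), against 2.24% of all windows and 4.28% of those with H3K4me3 and neither protein. TEAD was in 9.93%, 11.9% and 11.1% of the classes and the D-box in 0.373%, 0.383% and 0.404%. All motifs were read on both strands, and GGGCGG and CCGGAAG each contain CpG. Median GC content was 63.7%, 64.7% and 61.0% in the same order of classes and 53.7% in windows with neither protein. A match is a description of letters, and the factor was not measured.

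**Figure D5:**
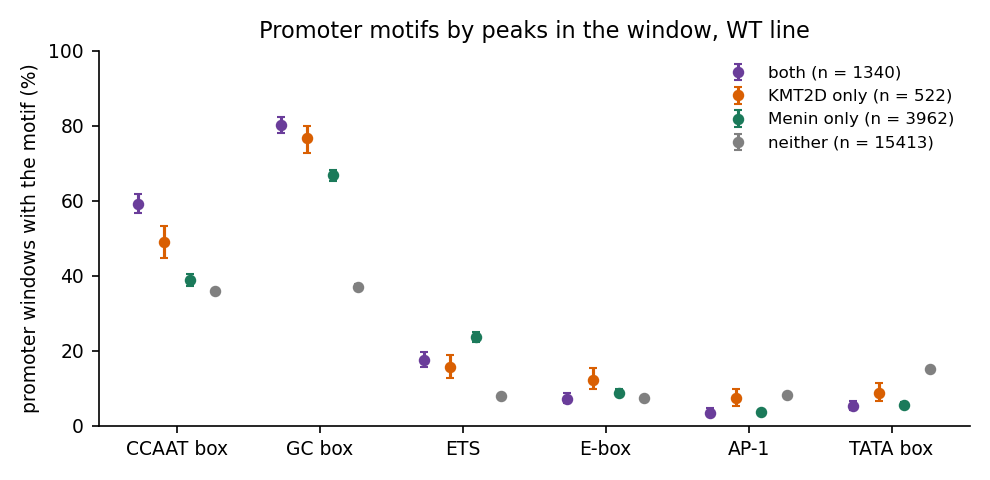
Share of promoter windows (y axis, %) with each of 6 motifs on either strand, for windows with a peak of both proteins, of KMT2D only, of Menin only and of neither in the WT line. Bars are 95% Wilson intervals for counting error. CCAAT stands at 59.3% for both and at 38.8% for Menin only.

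In the Kmt2d mutant line, Menin was called at nearly the same share of WT Menin sites with and without KMT2D, taken over all sites. This held when any overlap of 1 bp counted, but not by summits or within the weaker bins of Menin fold enrichment. A mutant Menin peak overlapped 78.4% of joint WT Menin peaks (76.7–80.0%) and 76.7% of Menin-only peaks (75.9–77.5%). With summits within 200 bp as the rule, for the classes too, the shares were 62.0% (59.6–64.3%) and 49.4% (48.5–50.3%), and with an overlap of 50% of the shorter peak 76.8% and 72.7%. By 1 bp overlap the shares at gene ends were 93.4% and 88.5%, and at distal sites 53.8% and 55.3%. From the strongest to the weakest of 5 bins of WT Menin fold enrichment, they were 96.9%, 89.4%, 73.4%, 56.7% and 53.5% of joint peaks. Of Menin-only peaks they were 97.1%, 87.7%, 78.0%, 64.7% and 59.8%. The mutant Menin list was longer, at 16773 peaks, against 13481 in the WT line. Of KMT2D-only WT sites, 12.2% overlapped a mutant Menin peak, with 42.0% at gene ends and 7.01% at distal sites. By genes, mutant Menin was at 95.9% of genes with both, 54.5% of KMT2D-only genes, 93.2% of Menin-only genes and 10.9% of genes with neither. Rps19, Zfpm1, Nr1d1 and Dbp were among the KMT2D-only genes with a mutant Menin peak, at 5.11-fold, 5.97-fold, 3.68-fold and 5.97-fold, and Evi5l, Khsrp, Per2 and Nr1d2 were without one. UTX, where it was called in the WT line, overlapped a mutant UTX peak at 68.4% of joint, 64.0% of KMT2D-only and 38.6% of Menin-only peaks. Whether the Kmt2d mutation or another difference between the lines goes with these shares cannot be told apart.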

How the data were processed

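CUT&RUN peak lists were used as deposited, 1 list per library, 22 in all. Per the submitters' processing notes, Bowtie2, MACS2, FastQC and MultiQC were used on mm10. The version, settings and control of the peak caller are not given in the sources used here. A peak held the authors' fold enrichment (a ratio), the deposited −log10 p and −log10 q, and a deposited score, which was the −log10 q times 10 as a whole number. Fold enrichment is relative to the caller's background within 1 library and was compared within a list, not between lists. Raw depth is unknown.

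The gene set held 21883 protein-coding genes from the RefSeq GRCm38.p6 table, on chromosomes 1 to 19, X and Y. Starts, strands and promoter sequences came from the RefSeq GRCm38.p6 promoter table. Overlaps needed 1 bp. Gene-end windows reached 1 kb and distal peaks lay beyond 5 kb. Where a gene had several peaks of a target, the highest fold enrichment was taken. Wilson 95% intervals around shares describe counting error alone.

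Genes were named as the 8 highest per class by gene-end peak (joint genes by KMT2D and by Menin, KMT2D-only and Menin-only genes with no peak of the other protein within 5 kb), the nearest genes of the 8 highest distal peaks per class, and members of 25 gene lists. Of the distal sites, 1 is not reported here. The classes, lists and motifs were chosen with earlier results of these data known. Alternatives were a −log10 q of at least 5, equal numbers of top peaks, overlap of 50% of the shorter peak, summits within 200 bp, gene ends of 2.5 kb and 0.5 kb, leaving out regions called in at least 15 of 22 lists, and chromosomes 1 to 19. Overlap, distance and motif steps were tested on simulated data. Scripts ran in Python 3.11.15 with pandas 2.3.3, NumPy 2.4.6 and SciPy 1.17.1, and figures were drawn with Matplotlib 3.10.9.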

Additional observations from a re-analysis of the deposited data

How the results depend on the processing

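Regions called in at least 15 lists and chromosomes beyond 1 to 19 could be left out with each of the 7 main values inside its interval or within 1.5 times. With a −log10 q of at least 5, 31.3% of KMT2D peaks were joint, and 16.9% of KMT2D-only and 56.8% of Menin-only peaks were at gene ends. With equal numbers of top peaks, 22.5% of KMT2D and 22.3% of Menin peaks were joint, 18.8% and 60.6% of KMT2D-only and Menin-only peaks were at gene ends, and 908 genes had KMT2D and no Menin and 2976 Menin and no KMT2D. With an overlap of 50% of the shorter peak, 35.0% of KMT2D and 16.6% of Menin peaks were joint and 15.3% of KMT2D-only peaks were at gene ends. With summits within 200 bp these were 26.2%, 12.5% and 21.2%. With gene ends of 2.5 kb, 19.9% of KMT2D-only and 67.8% of Menin-only peaks were at gene ends, and with 0.5 kb 11.4% and 38.6%. In every setting Menin-only peaks were at gene ends more often than KMT2D-only peaks.

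UTX stayed on at least 81.9% of KMT2D-only and at most 8.98% of Menin-only peaks. H3K4me3 by summits within 200 bp fell to 6.99% of joint, 2.68% of KMT2D-only and 23.8% of Menin-only peaks, and the cause was not tested. In the CCAAT shares, alternatives chosen after seeing the data gave 59.3% to 63.8% for windows with both, 45.5% to 55.7% for KMT2D only and 38.8% to 45.9% for Menin only. No paired analysis was possible because KMT2D had no mutant list here and each target used had 1 library in a line. The lists give no depth, so a class of 1 protein only can hold sites of the other below its calling limit.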
